A study of Mus musculus with 2 samples.

Results

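Some entries of a miRNA panel are taken as not needing Dicer. Of the 566 mouse entries of the NanoString panel, 4 probes carried such names, namely miR-720, a joint probe for miR-1937a and miR-1937b, miR-1937c, and miR-451. They were found by name in the raw counts of both libraries and matched by accession, with the joint probe counted once. The 3 tRNA-fragment probes among them were detected in both libraries and could serve as a scale for miRNA loss that does not rest on mRNAs, while miR-451 was detected in neither library.

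The comparison was between 2 pools of Müller glia (MG) from adult mouse retinas, sorted by FACS for tdTomato. Dicer-CKO MG came from Rlbp1-CreER:tdTomato:Dicerf/f mice (26 retinas), and wild-type MG from Rlbp1-CreER:tdTomato mice (40 retinas by 1 label and 26 by another). Mice of both groups received Tamoxifen at 75 mg/kg from postnatal day 11 to 14, which turns on Cre under the Rlbp1 promoter of MG, a promoter also active in some cells of the retinal pigment epithelium. Both groups therefore carry Cre and the reporter, and only the Dicer-CKO mice the floxed Dicer alleles. Each group is 1 library of pooled cells, so no difference has a replicate check, no p-value is given, and intervals are 95% intervals for counting error only. Dicer1 and the mRNA markers of MG were not among the panel's probes, so the deletion itself was not measured in these libraries.

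Dicer is the RNase that cuts hairpin precursors into mature miRNAs. miR-451, abundant in red blood cells, is the known exception, because its hairpin is too short for Dicer and is cut by the Argonaute protein Ago2 instead. miR-720 and the miR-1937 sequences were first listed as miRNAs and later withdrawn, since they match tRNAs. They were taken here as made without Dicer, which was not tested. The assay ligates a tag to each small RNA, hybridizes it to a barcoded probe and counts the barcodes one by one, and a probe for a tRNA fragment is read like one for a miRNA.

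The hairpin of miR-451 is shown first, since its shape is the reason for its place among the 4 probes, with that of Mir144, its neighbour that Dicer cuts, and that of Mir204, the source of the highest miRNA of wild-type MG. Sequences are from RefSeq (GRCm38.p6), 5′ to 3′, with the mature strands in capitals. Of the 5 names of the rule, 1 had a sequence in the RefSeq table, under the name miR-451a.
Mir451a: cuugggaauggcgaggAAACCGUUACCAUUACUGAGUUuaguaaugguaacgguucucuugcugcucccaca
Mir144: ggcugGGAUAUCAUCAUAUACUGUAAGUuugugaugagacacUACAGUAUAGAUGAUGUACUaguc
Mir204: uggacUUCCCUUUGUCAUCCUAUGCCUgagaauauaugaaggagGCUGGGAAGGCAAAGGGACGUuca
In the predicted fold of Mir451a, the mature strand of 22 bases took 18 bases of the 5′ arm and all 4 bases of the terminal loop. In Mir144 and Mir204 the mature strands stopped short of the loop, with 0 bases in it, and lay 1 on each arm. Mir451a lies on the plus strand at chr11:78073170-78073241, where the antisense miRNA gene Mir451b is also annotated, and Mir144 lies 99 bp upstream at chr11:78073005-78073070. Mir204 lies at chr19:22750605-22750672, also on the plus strand, within the gene Trpm3.

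The 2 libraries differed widely in total counts. The 566 mouse probes summed to 52644 barcodes in Dicer-CKO MG and 695390 in wild-type MG, out of 139812 and 769736 over all 626 probes of the panel. The spiked positive controls ran the other way, with a geometric mean of 142% of wild-type in Dicer-CKO MG, and the ligation controls stood at 137%. The detection limit was set 2 SD over the average of the 8 negative controls, at 53.2 raw counts in Dicer-CKO MG and 71.7 in wild-type MG. By this limit 77 mouse probes were detected in Dicer-CKO MG and 171 in wild-type MG, with 74 in both and 174 in either. Of the 33 probes for viral miRNAs, 0 were above the limit in Dicer-CKO MG and 2 in wild-type MG.

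All 3 tRNA-fragment probes had lower raw counts in Dicer-CKO MG, but not by the same factor. miR-720 was counted 2505 times in Dicer-CKO MG and 20736 times in wild-type MG. The joint probe for miR-1937a and miR-1937b was counted 314 times in Dicer-CKO MG and 986 times in wild-type MG. miR-1937c, the dimmest of the 3, was counted 111 times in Dicer-CKO MG and 586 times in wild-type MG. The counting intervals of each probe lay apart between the libraries, with 2408 to 2605 against 20455 to 21020 for miR-720. For miR-1937a/b they were 280 to 351 in Dicer-CKO MG and 925 to 1050 in wild-type MG, and for miR-1937c 91.3 to 134 and 540 to 635.

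**Figure D1:**
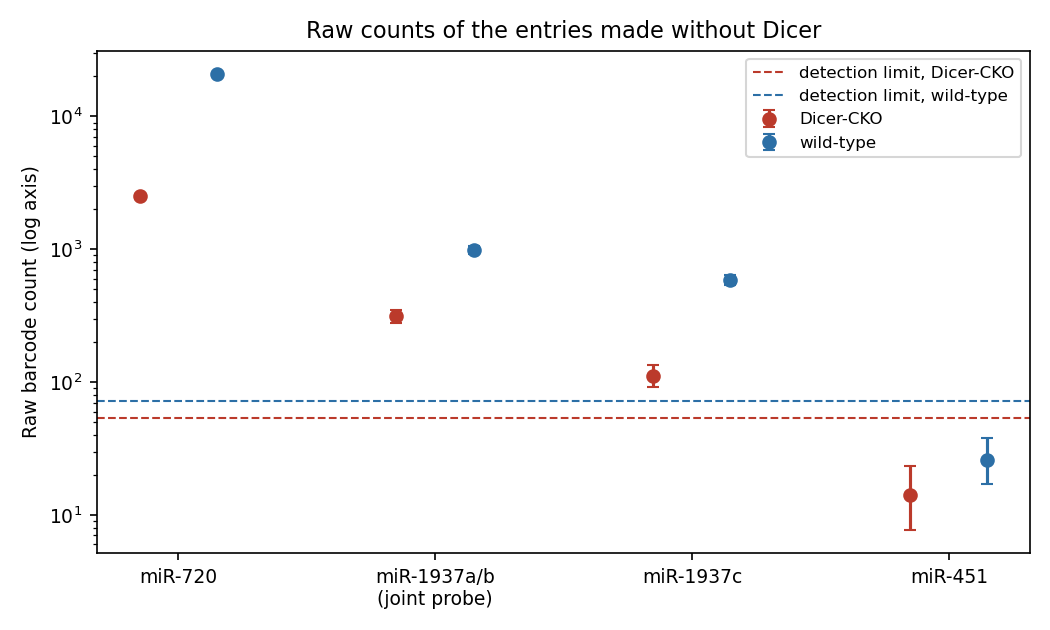
Raw barcode counts (log axis) of the 4 probes for entries taken as made without Dicer, with exact 95% Poisson intervals. Dicer-CKO MG is on the left and wild-type MG on the right of each pair. Dashed lines mark the detection limits of 53.2 and 71.7 counts, and miR-451 lies below both.

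miR-451, the Ago2-cut miRNA, was counted 14 times in Dicer-CKO MG and 26 times in wild-type MG. Both counts were below the mean of the negative controls of their library, 20.4 and 38.6. No ratio can be given for it, and at these counts miR-451 says nothing about the scale. Its neighbour miR-144 (8 and 11 counts) and miR-486 (13 and 40 counts), another miRNA of red blood cells, were also below the limits in Dicer-CKO MG and wild-type MG. The 3 red blood cell markers summed to 35 raw counts in Dicer-CKO MG and 77 in wild-type MG, and all 3 were undetected in both. After scaling to the housekeeping genes the detection limit was 90.0 normalized counts in Dicer-CKO MG and 23.6 in wild-type MG, so a low level of miR-451 would have been harder to see in Dicer-CKO MG.

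miR-720 was the 5th highest mouse entry of the Dicer-CKO library and the 6th highest of the wild-type library. It made up 4.76% (4.58 to 4.94, exact binomial) of the mouse barcodes in Dicer-CKO MG and 2.98% (2.94 to 3.02) in wild-type MG. miR-1937a/b made up 0.596% (0.532 to 0.666) in Dicer-CKO MG and 0.142% (0.133 to 0.151) in wild-type MG, and ranked 26th and 39th. miR-1937c made up 0.211% (0.173 to 0.254) in Dicer-CKO MG and 0.0843% (0.0776 to 0.0914) in wild-type MG, at ranks 49 and 50. Each of the 3 thus took a larger part of the mouse barcodes in Dicer-CKO MG, although its raw count there was lower. A share moves with every other entry, and 19 of the 22 highest miRNAs kept a smaller part of their net count than each of these 3 probes.

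Without any scaling, the 3 probes lay in the range of the housekeeping mRNAs or below it. After subtraction of the mean negative control, miR-720 in Dicer-CKO MG was 12.0% of wild-type (11.5 to 12.5), miR-1937c 16.6% (12.8 to 21.1) and miR-1937a/b 31.0% (27.0 to 35.5). The 4 housekeeping mRNAs were Actb (beta-actin), B2m (beta-2-microglobulin of MHC class I), Gapdh (a glycolytic enzyme) and Rpl19 (a ribosomal protein). Actb was counted 1939 times in Dicer-CKO MG and 7024 times in wild-type MG, a net level of 27.5% of wild-type (26.1 to 28.9). Gapdh stood at 20.3% (16.6 to 24.6), Rpl19 at 24.7% (20.4 to 29.6) and B2m at 33.8% (26.6 to 42.5). The 3 tRNA-fragment probes spanned a 2.58-fold range and the 4 mRNAs a 1.66-fold range. The brightest controls added to the assay were POS_A, with 40140 counts in Dicer-CKO MG and 31909 in wild-type MG, and LIG_POS_A, with 15943 and 12831. Cellular RNAs of both kinds were therefore low in the Dicer-CKO library while the added controls were not. By the study's methods a like mass of total RNA was submitted for each library, so these levels are per mass of RNA and not per cell. For any 1 cell type, fewer of its cells and less of its RNA per cell cannot be told apart in such pooled libraries.

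**Figure D2:**
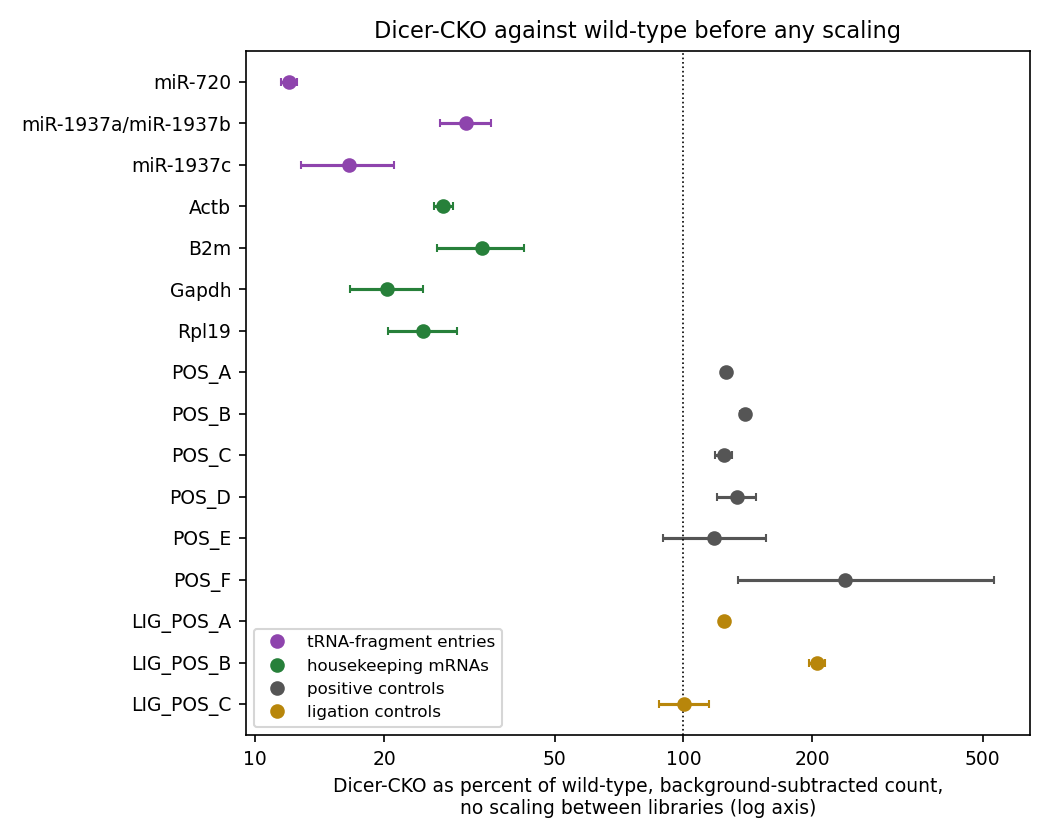
Background-subtracted count of Dicer-CKO MG as percent of wild-type MG (log axis), with no scaling between the libraries, for the 3 tRNA-fragment probes, 4 housekeeping mRNAs, 6 positive controls and 3 ligation controls. Bars are 95% counting intervals. The tRNA fragments lie between 12.0% and 31.0%, the mRNAs between 20.3% and 33.8%, and the added controls at 100% or above.

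On the housekeeping scale, which holds the geometric mean of the 4 mRNAs equal, the geometric mean of the 3 probes in Dicer-CKO MG was 70.2% of wild-type (61.4 to 80.0, counting error of all 7 probes included). A call of lower or higher was made for at least a 2-fold difference with an interval that excluded equality. miR-720 was called lower, at 6807 normalized counts in Dicer-CKO MG and 14816 in wild-type MG, or 45.9% (44.0 to 47.9 from its own counts, and 41.7 to 50.9 with those of the mRNAs). miR-1937c was at 248 normalized counts in Dicer-CKO MG and 392 in wild-type MG, or 63.4% (48.9 to 80.6), and miR-1937a/b at 804 and 678, or 119% (103 to 136). Neither reached 2-fold. Thus 1 of the 3 probes was called lower and 0 higher, against 29.9% lower (52 of 174) and 12.1% higher (21 of 174) among all mouse entries detected in either library. The 3 probes were detected in both libraries, but 97 of the 174 entries only in wild-type MG. By the rule those 97 could not be called higher, and could be called lower only where the detection limit itself lay 2-fold below wild-type. The 21 higher calls were therefore all among the 77 entries detected in Dicer-CKO MG. The median of the 3 was 63.4%, against 46.1% over the 74 entries measured in both. The authors' own normalized counts gave 5997 in Dicer-CKO MG and 13052 in wild-type MG for miR-720, 708 and 597 for miR-1937a/b, and 218 and 345 for miR-1937c.

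The call of miR-720 was close to the size rule. It was at 50.1% without B2m among the housekeeping genes, at 53.4% with the detection limit taken as background and at 56.6% with the highest negative control as background, each of which ends the call. miR-1937c moved the other way with these 2 backgrounds, to 50.5% and 47.4%, and so passed the 2-fold size with the second. Set against the mRNAs one at a time, miR-720 was lower than each of the 4, from 0.355 (0.282 to 0.453) of the change of B2m to 0.590 (0.485 to 0.725) of that of Gapdh. miR-1937c was lower than Actb (0.603, 0.463 to 0.771), B2m (0.490, 0.347 to 0.688) and Rpl19 (0.670, 0.488 to 0.911), and its ratio to Gapdh was 0.814 (0.589 to 1.11). miR-1937a/b was higher than Gapdh (1.52, 1.20 to 1.94), with intervals that included equality for Actb (1.13, 0.974 to 1.30), B2m (0.918, 0.702 to 1.21) and Rpl19 (1.26, 0.998 to 1.59). Of these 12 pairs, 8 had an interval that excluded equality, 7 with the tRNA fragment lower and 1 with it higher.

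The probes also differed among themselves, in a way that no scaling of the libraries can change. miR-720 was 8.46 times miR-1937a/b in Dicer-CKO MG (7.47 to 9.62) and 21.8 times in wild-type MG (20.4 to 23.4), in net counts. Against miR-1937c it was 27.4 times in Dicer-CKO MG (21.9 to 35.1) and 37.8 times in wild-type MG (34.6 to 41.4). miR-1937c was 0.309 of miR-1937a/b in Dicer-CKO MG (0.235 to 0.398) and 0.578 in wild-type MG (0.518 to 0.644). Each of the 3 ratios was lower in Dicer-CKO MG, to 0.387 (0.336 to 0.448), 0.725 (0.568 to 0.943) and 0.534 (0.399 to 0.705) of its wild-type value. The fall of miR-720 against miR-1937c depended on the background subtracted. With the detection limit as background, miR-720 was at 53.4% and miR-1937c at 50.5% on the housekeeping scale. With the highest negative control they were at 56.6% and 47.4%, which turns the direction of that change. miR-1937a/b stayed above both, at 128% and 132%. Levels of different probes depend on how well each binds, so a ratio within a library is not a molar ratio, but the change of that ratio does not carry the binding. The 3 probes therefore gave 3 different scales, and their mean is a compromise between them.

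Relative to the 22 highest wild-type miRNAs, the tRNA fragments kept more of their net count than most, whereas among all entries measured in both libraries miR-720 stood at the middle. Of the 22 highest wild-type miRNAs (the 23 highest entries without miR-720), 0 kept a larger part of their net count than miR-1937a/b, 1 than miR-1937c (miR-1944) and 3 than miR-720. Among all 71 other entries measured in both libraries, 20 kept more than miR-1937a/b, 29 more than miR-1937c and 35 more than miR-720. miR-720 had the 37th lowest ratio of the 74 entries, so the median over them, a net 12.0% of wild-type, rests on its own value. The plot of all entries shows this, with miR-720 close to let-7c and among the abundant miRNAs that lie nearest to the 2 lines of equality.

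**Figure D3:**
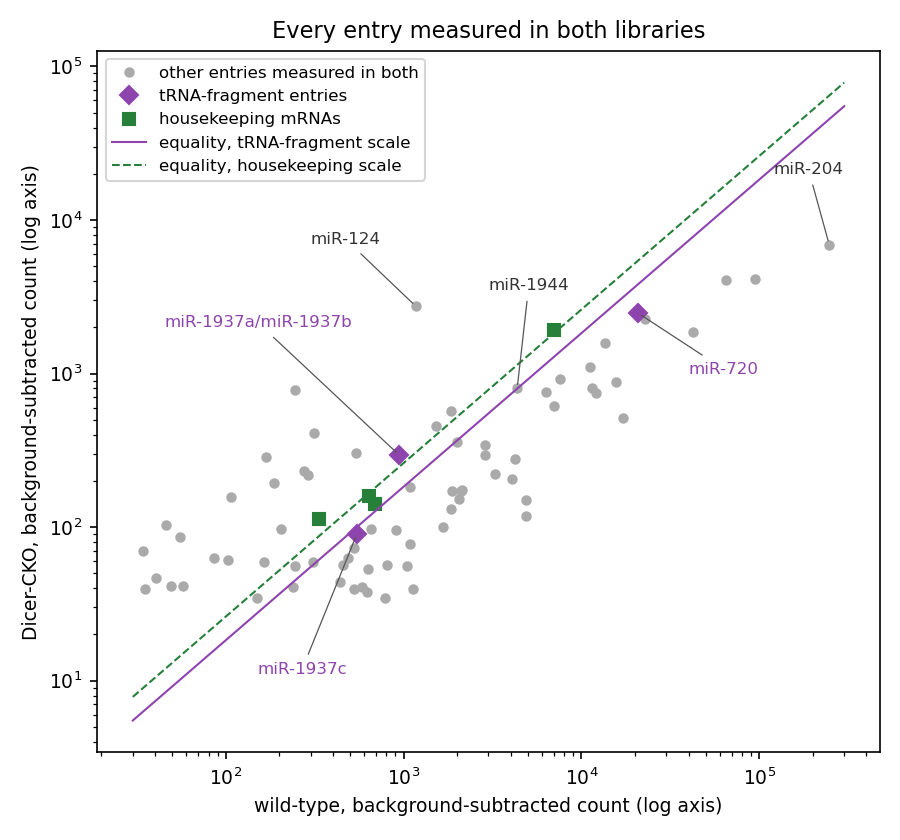
Background-subtracted counts of the 71 other mouse entries (grey circles), the 3 tRNA-fragment entries (diamonds) and the 4 housekeeping mRNAs (squares), wild-type MG on the horizontal and Dicer-CKO MG on the vertical log axis. The solid line is equality when the tRNA fragments are held equal and the dashed line when the mRNAs are. Abundant miRNAs such as miR-204 lie below both lines and miR-124 above both.

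Holding the geometric mean of the 3 tRNA fragments equal instead of that of the mRNAs raised every Dicer-CKO level by 1.43 times (0.51 on the log2 scale). The rise itself follows from the values above. On this tRNA-fragment scale the median of the 22 highest wild-type miRNAs in Dicer-CKO MG was 36.4% of wild-type, against 25.6% on the housekeeping scale. Of the 22, 14 were at 50% or less on the tRNA-fragment scale and 21 on the housekeeping scale, and 21 and 22 were below 100%. The summed net count of all detected mouse entries other than the 4 was 32.9% of wild-type on the tRNA-fragment scale and 23.1% on the housekeeping scale. The intervals given below on this scale cover each entry's own counts, while the scale itself, a net 18.3% of wild-type, has an interval of 16.6 to 20.1.

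The 3 MG miRNAs were the highest entries of wild-type MG, though not the 3 with the largest falls. miR-204, a miRNA rich in retina and pigment epithelium, was at 15.2% of wild-type on the tRNA-fragment scale (14.8 to 15.6), with 6906 raw counts in Dicer-CKO MG and 247414 in wild-type MG. miR-125b-5p, a miRNA of neural and glial cells, was at 23.7% (22.9 to 24.4), and miR-9, which acts in neural progenitors and glia, at 34.2% (33.1 to 35.3). These 3 are MG markers on the panel, and their summed net count was 37.3 times the mean of the tRNA fragments in Dicer-CKO MG and 185 times in wild-type MG. The other 7 of the 10 highest were miR-181a at 24.2%, let-7c at 54.4%, miR-99a at 16.4%, let-7b at 30.6%, let-7g at 63.3%, miR-30c at 33.7% and let-7d at 38.1%. Of these 10, let-7c and let-7g, members of a family known to promote differentiation, did not reach 2-fold. The lowest of the 22 were miR-100 at 13.3% (10.8 to 16.1), miR-204 and miR-99a, and the highest were miR-1944 at 100% (92.8 to 108), miR-29a at 66.3% (61.8 to 71.0) and miR-16 at 65.9% (61.0 to 71.1). miR-1944 thus kept the level of the tRNA fragments, and on the housekeeping scale it was at 70.4%.

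Each single tRNA fragment set another size of loss. With miR-1937a/b held equal, the median of the 22 was 21.5% of wild-type, a lower value than with the mRNAs. With miR-1937c alone it was 40.3%, and with miR-720 alone 55.6%, where 8 of the 22 were at 50% or less and 19 below 100%. The positive controls gave 4.71% and the ligation controls 4.88%. Held to the sum of all detected mouse entries, the median was 107% and 9 of the 22 were below 100%, a scale that by its making removes a loss shared by all miRNAs. The direction for the median of the 22 was lower under each of these scales apart from the sum, and its size moved by 2.58 times between the 3 tRNA fragments.

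**Figure D4:**
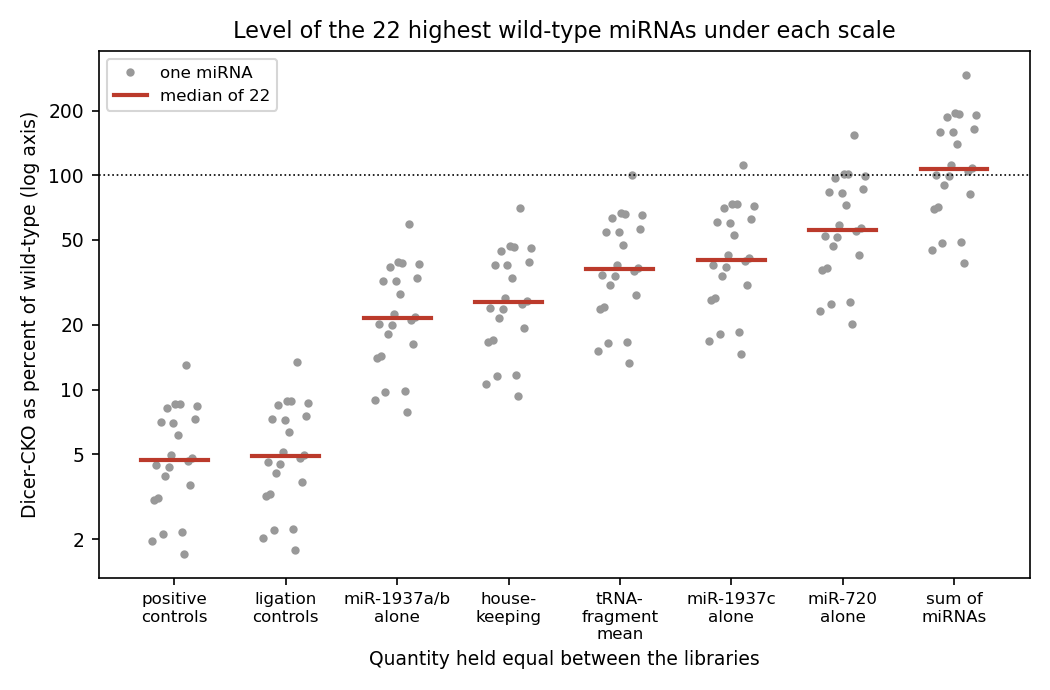
Level of the 22 highest wild-type miRNAs in Dicer-CKO MG as percent of wild-type MG (log axis) when each of 8 quantities is held equal between the libraries. Points are single miRNAs in the same order under each scale and red bars their median, which runs between 4.71% with the positive controls and 107% with the sum of detected miRNAs, and is 36.4% with the tRNA-fragment mean.

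Over all entries, 38 of the 174 (21.8%) were called lower and 22 (12.6%) higher in Dicer-CKO MG on the tRNA-fragment scale. The scales differ by 1 factor for all entries, so the 38 are by construction a part of the 52 called lower on the housekeeping scale, and the 21 called higher on that scale a part of the 22. The 3 tRNA fragments were 0 of the 60. The scale fixes only their geometric mean, and on it miR-720 was at 65.5% of wild-type, miR-1937c at 90.3% and miR-1937a/b at 169%. Counted on single fragments, 59 were lower with miR-1937a/b, 35 with miR-1937c and 16 with miR-720, while 19, 23 and 26 were higher. The count of lower calls thus depended on the fragment more than the count of higher calls did.

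With entries below the limit in Dicer-CKO MG placed at that limit, the 10 lowest on the tRNA-fragment scale were miR-100, miR-1927, miR-204, miR-99a, miR-125a-5p, miR-1960, miR-191, miR-125b-5p, miR-1965 and miR-181a. miR-1927 was counted 43 times in Dicer-CKO MG, below the limit, and 1331 times in wild-type MG, which puts it at 14.7% of wild-type or less with the counting error of the wild-type count. miR-191 was likewise below the limit in Dicer-CKO MG (40 counts, against 817 in wild-type MG), at 24.8% or less. miR-125a-5p was at 16.7% (13.9 to 19.8), miR-1960 at 19.1% (12.2 to 27.6) and miR-1965 at 24.0% (14.5 to 35.8). In all, 97 entries were detected only in wild-type MG, and any of them may lie lower than its limit shows, so the true order of the falls is not known. With miR-720 as the only scale miR-204 was still at 23.2% of wild-type.

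Among entries with 100 raw counts or more in 1 of the libraries, the 5 largest rises were those of miR-376a, miR-96, miR-124, miR-466g and miR-126-3p. miR-376a, from the imprinted Dlk1-Dio3 locus, was counted 238 times in Dicer-CKO MG and 46 times, below the limit, in wild-type MG, at least 31.1-fold higher with the counting error of the Dicer-CKO count. miR-96 of photoreceptors was 17.2-fold higher (14.8 to 20.1), with 797 counts in Dicer-CKO MG and 285 in wild-type MG. miR-124 of neurons was 12.7-fold higher (11.9 to 13.7), with 2759 counts in Dicer-CKO MG and 1211 in wild-type MG. miR-466g was 12.2-fold higher (7.97 to 20.2) and miR-126-3p of blood vessels 9.23-fold higher (7.51 to 11.4). miR-376a, miR-96, miR-124, miR-466g and miR-126-3p had more raw counts in the Dicer-CKO library, where the positive controls were also higher (142% of wild-type). Each was above wild-type under all 8 scales tried. The lowest ratio to wild-type was 4.65 for miR-376a, 2.22 for miR-96, 1.65 for miR-124, 1.58 for miR-466g and 1.19 for miR-126-3p. With the positive controls held equal, only 2 of the 174 entries were called higher.

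On the housekeeping and tRNA-fragment scales, markers of other cell types moved against the MG miRNAs. Some of these calls rest on the scale. miR-129-3p (252 and 313), miR-132 (81 and 141), miR-146a (83 and 125) and miR-142-5p (214 and 226) had fewer raw counts in Dicer-CKO MG than in wild-type MG. The immune list summed to 593 and 594 raw counts, while the neuron, photoreceptor and blood vessel lists summed higher in Dicer-CKO MG. The 4 neuronal miRNAs summed to 7.50 times the tRNA-fragment mean in Dicer-CKO MG and 0.720 times in wild-type MG. Of the 4, 3 were called higher (miR-124, miR-129-3p, miR-132), and miR-137 was undetected in Dicer-CKO MG. Among all entries 12.6% (22 of 174) were called higher. Only the 77 entries detected in Dicer-CKO MG could be called so, and all 22 were among them. miR-124 alone made up 7503 of the 8306 normalized counts of this list in Dicer-CKO MG and 839 of 1137 in wild-type MG. The 3 photoreceptor miRNAs summed to 2.99 times in Dicer-CKO MG and 0.255 times in wild-type MG, with miR-183 and miR-96 called higher and miR-182 undetected in both. The 5 immune cell miRNAs summed to 1.21 times in Dicer-CKO MG and 0.188 times in wild-type MG, with 4 called higher (miR-142-3p, miR-142-5p, miR-150, miR-146a) and miR-223 undetected in both. For blood vessels the sums were 0.757 times in Dicer-CKO MG and 0.0768 times in wild-type MG, with miR-126-3p called higher and miR-126-5p undetected in both. tRNA fragments and housekeeping mRNAs are found in all cell types, and the part of cells other than MG in the levels of miR-720, miR-1937a/b and miR-1937c was not tested.

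Some miRNAs need Dicer but not Drosha, the nuclease that acts before it, and they form the reverse case to the tRNA fragments. Of miR-877, miR-1224, miR-702, miR-320 and miR-484, only miR-1224 was detected in both libraries, and the other 4 were detected in neither. miR-1224 was counted 55 times in Dicer-CKO MG, fewer than the highest negative control of that library (59), and 189 times in wild-type MG. It was at 126% of wild-type on the tRNA-fragment scale (74.1 to 194) and at 88.1% on the housekeeping scale, and was called in neither direction. With a Dicer-CKO count of 55 against a limit of 53.2, a fall of miR-1224 to the median of the 22 highest would not have been detectable as a ratio.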

How the data were processed

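Raw counts of barcodes per probe were deposited by the authors for both libraries, together with normalized values, a score rounded to whole numbers that the authors made in nSolver, using 8 negative controls, 6 positive controls and 4 housekeeping genes. Members, lists and rules were chosen with earlier results of these data known. Groups came from the labels, of which 1 for wild-type gives 26 retinas and another 40. Probes were matched by accession, because 9 mouse entries are written differently in the 2 files. From each library the average of its negative controls was subtracted. Ratios were scaled to the geometric mean of the housekeeping genes or of the tRNA-fragment probes. Positive controls cancel in such a ratio. Intervals (95%) join exact Poisson limits of the counts, less background, on the log scale. They were tested on simulated counts for the tRNA-fragment mean and for abundant entries, but not for single entries with low counts. The background's own error is not in the intervals. Named miRNAs are the members, controls, 10 highest, extremes of the 22 highest, 10 largest falls (entries below the limit placed at it), 5 largest rises with 100 raw counts or more, cell type markers and Dicer-but-not-Drosha miRNAs. Alternatives for background, scale, detection limit and size rule were computed. Python 3.11.15, numpy 2.4.6, scipy 1.17.1, matplotlib 3.10.9 and RNAfold 2.7.2 were used.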

Additional observations from a re-analysis of the deposited data

How the results depend on the processing

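The mean of the tRNA fragments in Dicer-CKO MG, 70.2% of wild-type on the housekeeping scale, was 12.9% when scaled by positive controls, 13.4% by ligation controls, 49.5% for the sum in place of the geometric mean, and turned to 293% when scaled by the sum of detected miRNAs. On that last scale miR-720 turned to 192% and miR-1937c to 265%. miR-1937a/b turned to 21.9% with positive and 22.7% with ligation controls. Leaving out each housekeeping gene gave 64.5% to 76.4% for the mean. The median of the 22 highest miRNAs, 36.4%, was 21.5%, 40.3% and 55.6% with miR-1937a/b, miR-1937c and miR-720 as the only scale, 47.4% without miR-1937a/b, 29.5% without miR-720, 51.6% with the sum of the 3 probes, 40.8% with the highest negative control as background, 30.6% for the 10 highest and 40.8% for all above 1000 normalized counts. The 38 lower calls became 59 and 16 with miR-1937a/b and miR-720 alone, 25 without miR-1937a/b, 19 with the sum, 24 above 100 counts and 10 at 4-fold. The 22 higher calls became 14 with the highest negative control as background and 13 above 100 counts. Settings not named here kept each of these 4 values within its counting interval or the counts within 1.5 times. Adding miR-451 to the scale was not run, since it was detected in neither library. No paired analysis was possible because each group has 1 library. Low counts limit miR-451, miR-1937c and 392 entries detected in neither library.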

Other observations

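Among the 47 other entries with at least 500 raw counts in wild-type MG and detected in both libraries, the 3 nearest to the mean of the tRNA fragments were miR-1944, let-7f and miR-30b, a rule chosen after their values were seen. let-7f was counted 377 times in Dicer-CKO MG and 2030 times in wild-type MG, at 97.7% of wild-type on the tRNA-fragment scale (86.8 to 110). miR-30b was counted 203 times in Dicer-CKO MG and 1127 times in wild-type MG, at 91.5% (77.2 to 108). miR-1944 was counted 820 times in Dicer-CKO MG and 4389 times in wild-type MG.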
